A study of Arabidopsis thaliana with 22 samples.

Results

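The genes described here are 10 loci of flavonoid and anthocyanin synthesis in Arabidopsis thaliana, chosen by their locus identifiers in both deposited count tables. They are 10 of 23318 genes in the leaf table and 10 of 33318 in the seedling table. The enzymes are chalcone synthase (CHS, AT5G13930), chalcone isomerase (CHI, AT3G55120), flavanone 3-hydroxylase (F3H, AT3G51240), flavonoid 3'-hydroxylase (F3'H, AT5G07990), flavonol synthase (FLS1, AT5G08640), dihydroflavonol reductase (DFR, AT5G42800) and leucoanthocyanidin dioxygenase (LDOX, AT4G22880). The regulators are the MYB transcription factors MYB75 (AT1G56650), MYB12 (AT2G47460) and MYB111 (AT5G49330).

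The study concerns a pair of trihelix transcription factors, plant proteins that bind DNA through a domain of 3 helices, in plant defence. Leaves of 3-week-old plants came from Col-0, the wild-type accession, and from OXAITF1, a line that overexpresses the factor AITF1, with 2 libraries in each group. Seedlings aged 10 days, either Col-0 or the double mutant aitf1-1 asr3-1, were taken at 0, 1 and 3 h, in triplicate libraries (3 for each genotype and time). The labels name neither the agent given at 0 h, nor the promoter or number of lines behind OXAITF1, nor the hour of day at which tissue was taken. They do not say that replicates are separate plants, so the p-values measure differences among libraries, which may be technical. The growth text gives another seedling age than the labels, and the extraction text names leaves even for seedling samples.

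Flavonoids are made from phenylalanine by way of general phenylpropanoid metabolism. CHS and CHI build the flavanone skeleton, F3H and F3'H add hydroxyl groups to it, and the pathway then divides: FLS1 makes flavonols, which serve as sunscreens and antioxidants, while DFR and LDOX lead to the red and purple anthocyanins. MYB12 and MYB111 activate the early enzymes and FLS1, whereas MYB75, with basic helix-loop-helix partners and a WD-repeat protein, activates the late enzymes that make anthocyanins, for which vegetative tissue under strong light, cold or nutrient stress is known.

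The upstream sequences of 4 members are shown because they represent the entry enzyme, the flavonol branch and both late anthocyanin enzymes, the genes on which the results turn. Each is the 250 bases before the RefSeq start of the gene in TAIR10.1, 5′ to 3′ on the strand of the gene. Capitals mark letters that match a G-box (CACGTG), the core bound by bZIP and basic helix-loop-helix factors, or the MYB elements ACCNACC and ACCNAAC, each searched on both strands. CHS lies on the forward strand, with the window at chr5:4488226-4488475, and FLS1 also on the forward strand, at chr5:2803583-2803832. DFR lies on the reverse strand, at chr5:17166033-17166282, and LDOX on the reverse strand, at chr4:12006210-12006459.
CHS: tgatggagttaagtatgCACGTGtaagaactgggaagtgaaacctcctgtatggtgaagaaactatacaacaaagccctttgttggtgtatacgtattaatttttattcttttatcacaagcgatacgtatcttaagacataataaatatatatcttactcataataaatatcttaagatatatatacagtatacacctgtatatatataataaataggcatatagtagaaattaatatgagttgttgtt
FLS1: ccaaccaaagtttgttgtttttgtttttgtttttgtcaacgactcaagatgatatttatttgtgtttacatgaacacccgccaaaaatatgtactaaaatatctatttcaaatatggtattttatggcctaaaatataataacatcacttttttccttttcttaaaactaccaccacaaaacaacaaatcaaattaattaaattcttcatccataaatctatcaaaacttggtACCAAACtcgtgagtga
DFR: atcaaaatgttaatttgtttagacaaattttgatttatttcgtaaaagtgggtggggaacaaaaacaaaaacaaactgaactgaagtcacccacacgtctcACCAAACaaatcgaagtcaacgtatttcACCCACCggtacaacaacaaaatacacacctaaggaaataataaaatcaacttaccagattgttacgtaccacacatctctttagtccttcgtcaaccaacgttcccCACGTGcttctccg
LDOX: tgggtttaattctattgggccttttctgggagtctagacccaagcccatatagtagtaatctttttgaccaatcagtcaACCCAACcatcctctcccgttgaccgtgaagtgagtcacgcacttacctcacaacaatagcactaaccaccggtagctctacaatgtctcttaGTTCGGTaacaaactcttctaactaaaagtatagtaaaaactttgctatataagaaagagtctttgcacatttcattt

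The DFR window holds all 3 of these motifs, with the G-box 14 to 9 bases before the start. The CHS window holds 1 G-box, 233 to 228 bases before the start, and neither MYB element. In FLS1 an ACCNAAC match ends 11 bases before the start, and LDOX has ACCNAAC matches on both strands. Among the 10 members, CACGTG was present in CHS, F3H, DFR and MYB12, against 6.49% of all 27443 windows of the same length. ACCNAAC was present in 5 members (14.5% of windows) and ACCNACC in 2 (6.1%). GGTTAA, a core bound by trihelix factors, was present in F3H alone among the members and in 14.6% of windows. A match describes the letters of the window and is not a binding site.

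Total counts were 15.3 to 19.4 M in leaf libraries and 17.1 to 21.6 M in seedling libraries. AT3G11100, the trihelix gene that is overexpressed in these leaves, had 193 and 205 counts in the wild type and 60801 and 83496 in OXAITF1, so that both OXAITF1 libraries carry it. RBCS1A, the Rubisco small subunit that marks leaf mesophyll, was at 26300 and 27500 CPM (counts scaled to a common library size) in wild-type leaves and at 5540 and 7990 CPM in OXAITF1. PYK10, a root glucosidase, had 39 counts or fewer in every leaf library. OXAITF1 replicate 1 stands apart from replicate 2 in the genes described here, and the leaf tests of the members are therefore also given without it. In bulk tissue, fewer cells of a type and less RNA per cell cannot be told apart. Leaf and seedling values come from separate tables and were not tested against each other.

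To ask whether overexpression of AITF1 goes with a change of the pathway in leaves, the 10 genes were compared between OXAITF1 and wild-type libraries. The wild-type libraries and OXAITF1 replicate 2 held low levels of the anthocyanin enzymes and OXAITF1 replicate 1 held high ones. No member passed the test: edgeR's quasi-likelihood test called 0 of the 6 members that passed the filter on low counts (1 at an unadjusted p under 0.05, 0 by DESeq2), against 19.8% of 18639 genes tested (9.36% higher, 10.4% lower). The 6 members had log2 fold changes above 0, with a median of 2.52 beside 0.0462 over all genes tested. MYB111, 1 of the 6, passed the filter only through the OXAITF1 libraries, where it is high. Without OXAITF1 replicate 1 the median of the 6 members was -2.14, and 5 of them were below 0. With library totals in place of TMM factors (a scaling that corrects for composition), the calls over all genes went from 1745 higher and 1947 lower to 5287 higher and 1127 lower.

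**Figure D1:**
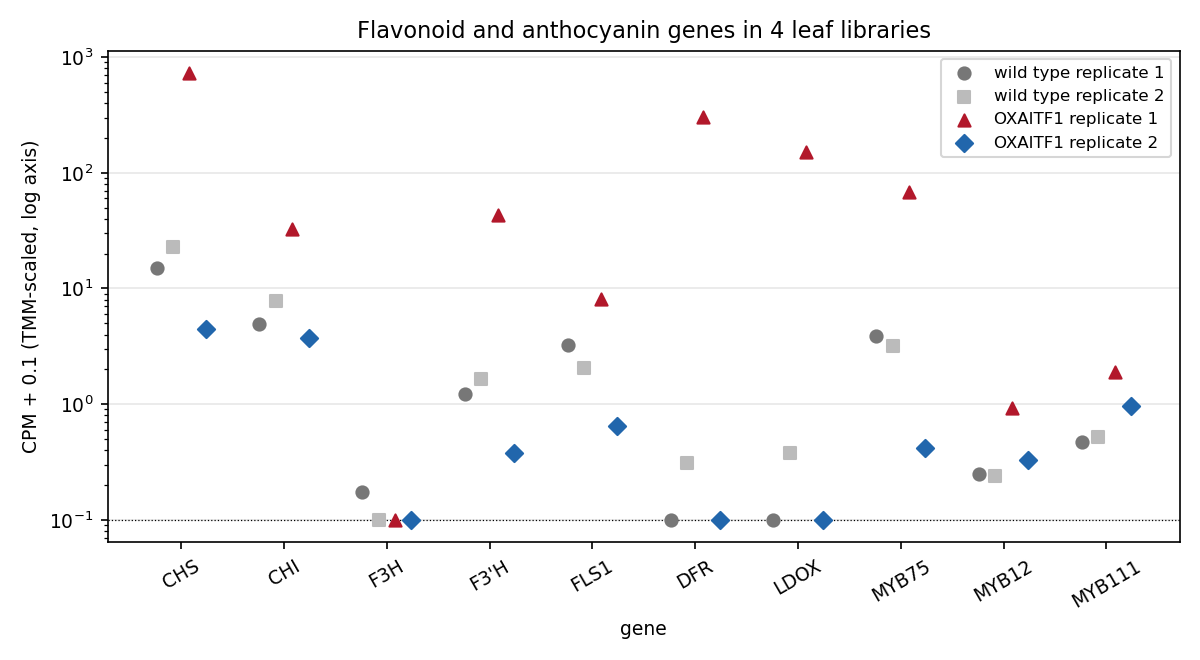
Levels of the 10 flavonoid and anthocyanin genes in the 4 leaf libraries, in TMM-scaled CPM on a log axis, 1 point per library, with a small constant added so that libraries at 0 can be drawn on the dotted line. OXAITF1 replicate 1 is the highest of the 4 libraries for every member except F3H, which had 1 count in all leaf libraries together.

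CHS, the enzyme that commits carbon to flavonoids, was at 14.9 and 22.6 CPM in wild-type leaves and at 727 and 4.36 CPM in OXAITF1. The 2 OXAITF1 values lie on either side of the wild type. The log2 fold change was 4.29 (SE 2.11, edgeR adjusted p = 0.206). Without OXAITF1 replicate 1 it was -2.1 (adjusted p = 0.00474), and without OXAITF1 replicate 2 it was 5.24 (adjusted p = 0.000178). Both of those fits leave a lone OXAITF1 library, which is assumed to vary like the wild type.

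CHI, which closes the chalcone ring, was at 4.85 and 7.73 CPM in wild-type leaves and at 32.6 and 3.63 CPM in OXAITF1. F3'H, which adds the second hydroxyl group of the B ring, had 1.12 and 1.55 CPM in the wild type against 43.4 and 0.276 CPM. In both genes the wild-type libraries lay between the 2 OXAITF1 libraries. FLS1 followed the same order over a smaller range, with 3.14 and 1.97 CPM in the wild type and 7.99 and 0.551 CPM in OXAITF1.

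The late enzymes were close to absent outside one library. DFR, the first committed enzyme of anthocyanin synthesis, had 0 and 3 counts in the wild type and 6231 and 0 counts in OXAITF1. LDOX, which makes the coloured anthocyanidin, had 0 and 4 counts in the wild type and 3120 and 0 in OXAITF1. In OXAITF1 replicate 1 these counts were worth 302 CPM for DFR and 151 CPM for LDOX. At this depth a count of 0 allows up to 0.138 CPM (3 counts, counting error only) in OXAITF1 replicate 2. Neither gene passed the filter on low counts, which asks for enough counts in 2 libraries, so neither was tested.

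MYB75, the activator of the late enzymes, was at 3.81 and 3.09 CPM in wild-type leaves and at 68.8 and 0.322 CPM in OXAITF1. Replicate 1 lay above both wild-type libraries and replicate 2 below them. MYB12, the flavonol regulator, had 2 counts in each wild-type library and 17 and 5 counts in OXAITF1, and was not tested. MYB111, which shares its targets with MYB12, had 0.373 and 0.422 CPM in the wild type and 1.79 and 0.873 CPM in OXAITF1. It had 5 and 6 counts in the wild type and 37 and 19 in OXAITF1. MYB111 thus passed the filter on low counts only through the OXAITF1 libraries, where it is high. Among the 6 tested members it was the 1 whose OXAITF1 libraries both lay above the wild type, against 35.5% of all genes tested. That place follows in part from the filter and is not read further. The libraries of MYB12, which was not tested, lay in the same order on the small counts above. The MYB111 difference of 1.73 on the log2 scale (SE 0.58, edgeR adjusted p = 0.0997) was not called. It was 1.12 without OXAITF1 replicate 1 and 2.11 without OXAITF1 replicate 2, and 1.64 and 1.81 without wild-type replicate 1 and 2. In each of these fits MYB111 also entered only through OXAITF1 libraries.

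Leaving out single leaf libraries changed both the count and the direction. Without OXAITF1 replicate 1, edgeR called 3 of 6 tested members, all lower: CHS, FLS1 (-2.19, adjusted p = 0.0347) and MYB75 (-3.39, adjusted p = 0.00592). CHI had -0.79 (adjusted p = 0.147) and F3'H -2.24 (adjusted p = 0.0669). Over all genes that fit called 32.5% of 18971. Without OXAITF1 replicate 2 the log2 fold changes were 5.24 for CHS, 2.33 for CHI, 4.97 for F3'H, 1.61 for FLS1 and 4.28 for MYB75. DFR, LDOX, MYB12 and MYB111 entered that fit only through the library in which they are high, and their values in it are not read. Without either wild-type library, no member was called (0 of 9 tested), nor was any other gene (0 of 19351 and of 19388 by edgeR, 4033 and 3990 at an unadjusted p under 0.05).

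To show how far the 2 OXAITF1 libraries differ in the pathway, the ratio of replicate 1 to replicate 2 was taken for 19577 genes with at least 10 counts in any leaf library, after adding 0.5 CPM. The threshold of 8-fold was chosen after the values were seen, and the ratio of 2 libraries has no test. Of the 9 members measured, 7 were past 8-fold, against 0.593% of all genes (116). In the other direction 4 genes were past 8-fold (0.0204%), and between the wild-type libraries 1 gene (0.00511%) and 3 genes (0.0153%) were. CHS held rank 9 of all 19577 genes, MYB75 rank 16 and F3'H rank 18. DFR, at rank 1, and LDOX, at rank 2, reached 10 counts in OXAITF1 replicate 1 alone. Both entered through the library in which they are high, so their ranks and their part in the 7 are not read further. MYB12 also reached 10 counts only there. The ratio was 150 for CHS, 84.3 for MYB75 and 56.6 for F3'H. FLS1 at 8.08 and CHI at 8.01 were just inside the threshold, and MYB12 at 1.81 and MYB111 at 1.67 were far outside it. The added 0.5 CPM draws the ratios of low genes toward 1, so these distances depend in part on level. So CHS, MYB75 and F3'H were among the 18 highest ratios of the tissue.

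**Figure D2:**
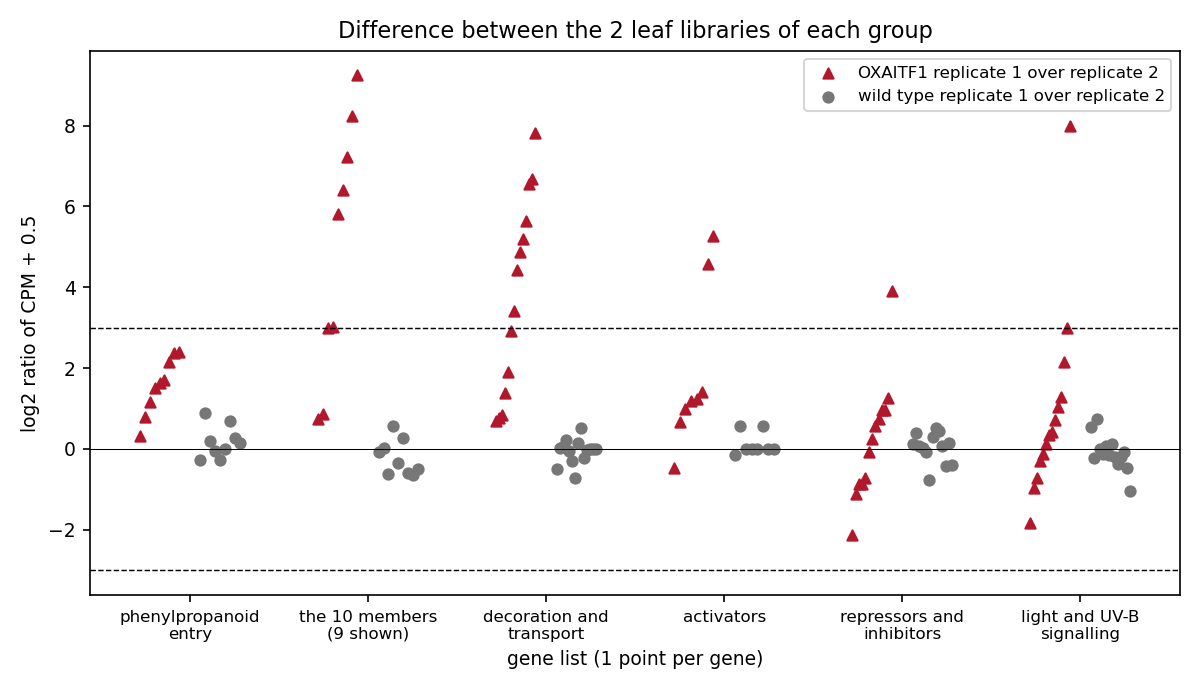
Ratio of replicate 1 to replicate 2, as log2 of CPM with 0.5 added, for OXAITF1 (triangles) and wild-type leaves (circles), 1 point per gene, for 9 members and for the entry, decoration, activator, repressor and light lists; dashed lines mark 8-fold. In the OXAITF1 libraries 7 of the 9 members lie past the upper line, while the wild-type ratios of the members stay between 0.64 and 1.47.

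Set against the wild-type mean on the same scale, the excess in replicate 1 was 37.7-fold for CHS, 24-fold for F3'H and 17.5-fold for MYB75. Over all genes, 1.09% were past 8-fold higher in that library and 0.358% past 8-fold lower. In replicate 2 the ratio to the wild type was 0.252 for CHS, 0.208 for MYB75 and 0.344 for FLS1. None of the 9 members was past 8-fold in replicate 2, in either direction, against 0.587% of genes higher and 0.409% lower. With 0.5 CPM added, only CHS and CHI had wild-type levels high enough to be past 8-fold lower. For the other members the added constant excludes such a value even at 0 counts, so the lower direction is not read for them.

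Part of the genes that act on flavonoids after the members differed between the same libraries. Of 14 measured genes for decorating and transporting flavonoids, 8 were past 8-fold in replicate 1 over replicate 2, against 0.593% of all genes. TT19, a glutathione transferase needed to bring anthocyanins to the vacuole, had 0 counts in both wild-type libraries and 2319 and 0 in OXAITF1. UGT79B1, which adds xylose to anthocyanins, had 0 counts in both wild-type libraries and 1038 and 0 in OXAITF1, and 5MAT, a malonyltransferase, 0 in both and 1043 and 1. TT19, UGT79B1 and 5MAT reached the count needed for the ratio in OXAITF1 replicate 1 alone. They entered through the library in which they are high, so their part in the 8 is not read further. UGT75C1, an anthocyanin glucosyltransferase, had 41 and 52 counts in the wild type and 2091 and 50 in OXAITF1. UGT78D2, a flavonoid glucosyltransferase, was just outside the threshold at 7.58.

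Among 8 activators measured, 2 were past 8-fold. MYB90, the close relative of MYB75, had 0 counts in the wild type and 384 and 0 in OXAITF1, and TT8, the basic helix-loop-helix partner, had 0 in the wild type and 351 and 5. MYB90 and TT8 reached the count needed for the ratio only in the OXAITF1 library in which they are high. Their place past 8-fold is therefore not read further. Of 13 repressors only ETC3 was past 8-fold, and of 14 light-signalling genes only ELIP1, a chloroplast protein induced by strong light. ELIP1 had 7 and 23 counts in the wild type and 3601 and 4 in OXAITF1. None of the 9 enzymes that lead into the pathway was past 8-fold. PAL1, phenylalanine ammonia-lyase, was at 56.6 and 46.7 CPM in wild-type leaves and at 91.4 and 17.2 CPM in OXAITF1.

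Part of the clock genes differed between the same libraries. A list of 11 clock genes was drawn up after the values were seen. Of these, 3 of 11, the morning factors LHY, CCA1 and RVE8, were past 8-fold in replicate 1 over replicate 2. The share over all genes was 0.593%. LHY had 17 and 37 counts in the wild type and 5294 and 25 in OXAITF1, and CCA1 87 and 123 in the wild type and 4300 and 141 in OXAITF1. The evening gene TOC1 was at 72.5 and 65.4 CPM in wild-type leaves and at 84.7 and 219 CPM in OXAITF1, the reverse order. The median log2 ratio of the 11 genes was -0.979. The part of clock genes and of ELIP1 in the leaf values of the pathway was not tested.

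By the test over groups, edgeR called 0 of 11 decoration genes in leaves (0 at an unadjusted p under 0.05, 2 by DESeq2) and 0 of 3 activators (1 and 1). Over all genes tested edgeR called 19.8%. MYB32, a repressor-type MYB factor, rose by 2.29 on the log2 scale (SE 0.47, adjusted p = 0.0374) and LBD38, a repressor of anthocyanin genes under nitrate, fell by 1.97 (SE 0.44, adjusted p = 0.0449). PIF3, a phytochrome-interacting factor, rose by 1.02 (SE 0.20, adjusted p = 0.0333), and PAL3 fell by 1.28 (SE 0.19, adjusted p = 0.0217). All 4 of these calls were lost without wild-type replicate 1 or 2, as was every edgeR call over all leaf genes.

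In seedlings the pathway was low, and the branch to anthocyanins was almost without counts. Per kilobase of exon, the level in wild-type seedlings at 0 h was 7.27 CPM for CHI, 2.5 for CHS, 2.34 for MYB12, 1.7 for F3'H, 1.17 for FLS1 and 0.132 for MYB111. Libraries of CHI lay above those of all other members on this scale, those of CHS, MYB12 and F3'H overlapped, and those of FLS1 lay below them. Wild-type leaves had another order per kilobase, with CHS at 11 CPM, CHI at 5.66 and MYB75 at 3.11.

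MYB75 and F3H had 0 counts in all 18 seedling libraries. DFR had 0 to 4 counts a library, with group sums of 2, 1 and 0 in the wild type and 3, 5 and 5 in the double mutant at 0, 1 and 3 h. LDOX had 0 counts in the wild-type libraries, and group sums of 3, 6 and 2 in the double mutant. MYB111 had 1 to 10 counts a library. None of these 5 members passed the filter on low counts. Without that filter MYB75 and F3H have nothing to test, and for DFR, LDOX and MYB111 edgeR called 0 comparisons, with an adjusted p of 0.387 for LDOX and 0.421 for DFR for the genotypes over all times and 0.0816 for MYB111 in the double mutant at 3 h against 0 h. The remaining 5 members, CHS, CHI, F3'H, FLS1 and MYB12, were tested among 21028 genes.

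The value of F3H needs care. It had 1 count in the 4 leaf libraries together and 0 in seedlings, although CHS and CHI, which act just before it, were measured in every library. Its exons share 1415 of 1508 bases (93.8%) with AT3G51238, a long noncoding RNA on the opposite strand at chromosome 3, 19025110 to 19026779. Of 330 protein-coding genes with at least 90% of exon bases shared with another counted gene, 27% were at 0 in every seedling library. The share was 13% of 20159 genes with no shared base, 2.37% of 5940 with under 50% shared and 14.4% of 278 with 50 to under 90%. AT3G51238 itself had 1 count in leaves and 0 in seedlings. The part of the overlap in the 0 of F3H was not tested. The sources used here do not give the strand setting or the treatment of reads in overlaps, so the 0 of F3H may not reflect its transcript level. CHS shares 2 bases with a neighbouring gene, and no other member shares any.

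**Figure D3:**
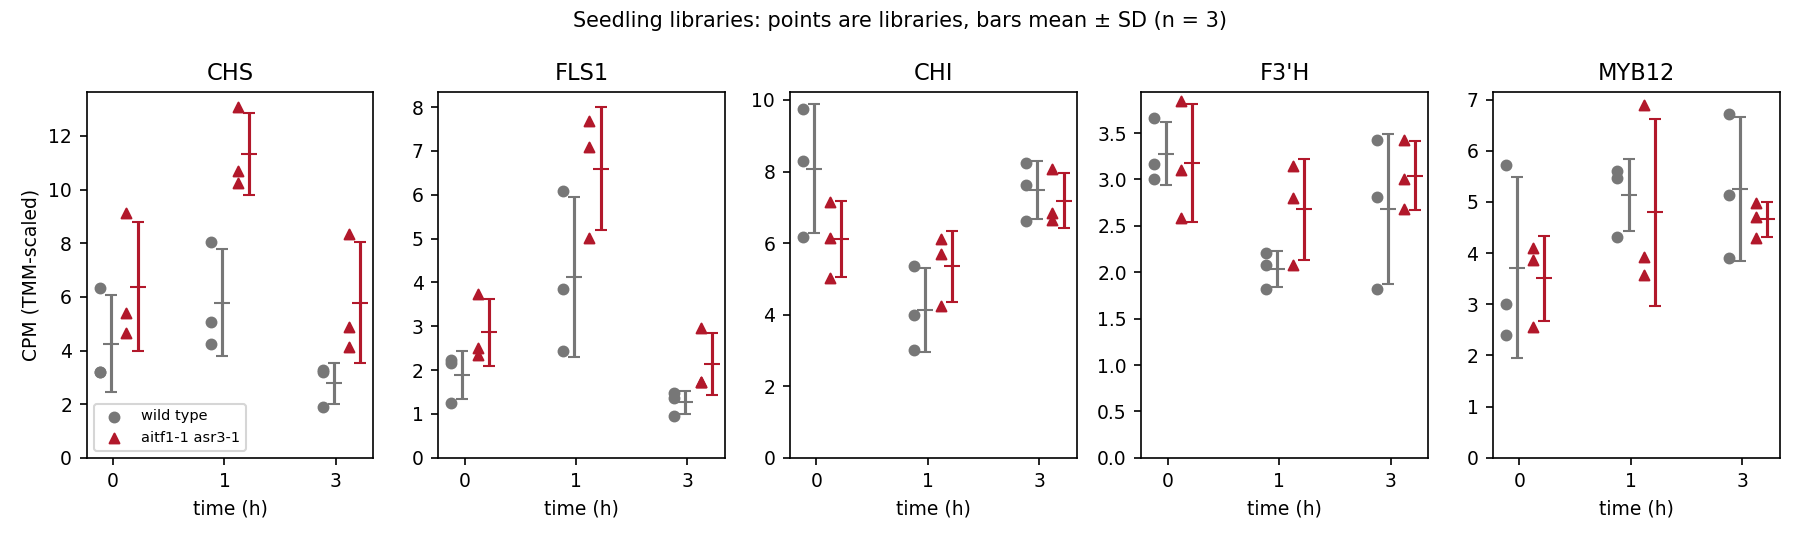
Levels of the 5 tested members in seedlings at 0, 1 and 3 h in Col-0 and in aitf1-1 asr3-1, in TMM-scaled CPM, with 1 point per library and bars for the mean ± SD (n = 3). FLS1 has its highest mean at 1 h in both genotypes, and CHI has its lowest mean at 1 h in the wild type, at 4.13 ± 1.18 CPM.

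To follow the pathway over time, 1 h was set against 0 h within each genotype. In the wild type FLS1 rose while CHI and F3'H fell, 3 of 5 tested members, against 48.2% of all genes called (25.2% higher, 23% lower). In the double mutant FLS1 rose and no other member passed, 1 of 5 against 39.5% (20.3% higher, 19.2% lower). Libraries of the 2 times did not overlap for 3 of 5 members in the wild type (55.6% of genes) and for 2 of 5 in the double mutant (53.1%). Untreated seedlings at 1 or 3 h are not among the libraries analysed here, so time and the agent cannot be told apart. The 1 h and 3 h comparisons share their 0 h libraries.

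FLS1, the flavonol branch enzyme, was at 1.26, 2.17 and 2.23 CPM at 0 h and at 2.44, 3.86 and 6.07 CPM at 1 h in wild-type replicates 1, 2 and 3. Every 1 h library lay above every 0 h library. The log2 fold change was 1.11 (SE 0.33, edgeR adjusted p = 0.0117). Double-mutant seedlings had FLS1 at 2.34, 3.74 and 2.51 CPM at 0 h and at 5.01, 7.68 and 7.08 CPM at 1 h, again without overlap, and rose by 1.19 (SE 0.31, edgeR adjusted p = 0.0062). The wild-type call was lost without wild-type 0 h replicate 1 (adjusted p = 0.055) and without wild-type 1 h replicate 3 (0.73 on the log2 scale, adjusted p = 0.0876).

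CHI was at 8.29, 6.18 and 9.76 CPM at 0 h and at 3.02, 4 and 5.36 CPM at 1 h in the wild type. It fell by 0.97 on the log2 scale (SE 0.22, edgeR adjusted p = 0.00143), without overlap between the times. Double-mutant seedlings had CHI at 5.03, 6.14 and 7.16 CPM at 0 h and at 4.23, 5.71 and 6.11 CPM at 1 h, and the 2 times overlapped. The test of the difference between the genotypes gave 0.78 (95% interval 0.136 to 1.42) with an adjusted p of 1, and was not called.

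F3'H was at 3.66, 3.16 and 3.01 CPM at 0 h and at 1.82, 2.21 and 2.08 CPM at 1 h in the wild type, also without overlap. It fell by 0.68 (SE 0.23, edgeR adjusted p = 0.0224). The call was lost without wild-type replicate 1 at 0 h or at 1 h (adjusted p = 0.0848 and 0.0685). In the double mutant it was at 3.1, 2.58 and 3.84 CPM at 0 h and at 3.15, 2.08 and 2.8 CPM at 1 h, and the times overlapped. The genotype difference in this response was not called (edgeR adjusted p = 1).

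CHS was at 3.2, 3.21 and 6.33 CPM at 0 h and at 5.07, 4.23 and 8.04 CPM at 1 h in the wild type, where the times overlap. Double-mutant libraries were at 5.38, 9.12 and 4.65 CPM at 0 h and at 10.7, 13.1 and 10.2 CPM at 1 h, and every 1 h library was above every 0 h library. The log2 fold change in the double mutant was 0.82 (SE 0.33) with an edgeR adjusted p of 0.0551, and CHS was called by DESeq2 (adjusted p = 0.0444). MYB12 was at 2.4, 5.73 and 3.01 CPM at 0 h and 5.6, 4.32 and 5.47 CPM at 1 h in the wild type, and at 3.86, 4.09 and 2.56 CPM and 3.92, 6.9 and 3.57 CPM in the double mutant. Its times overlapped in both genotypes.

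From 1 h to 3 h FLS1 and CHS fell in both genotypes. In the wild type FLS1 fell by 1.69 (SE 0.35, edgeR adjusted p = 0.00256) and CHS by 1.05 (SE 0.36, adjusted p = 0.0438), while CHI rose by 0.87 (SE 0.22, adjusted p = 0.00817). These are 3 of 5 tested members, against 24.7% of genes called (12.9% higher, 11.8% lower). In the double mutant FLS1 fell by 1.62 (SE 0.32, adjusted p = 0.00202) and CHS by 0.97 (SE 0.33, adjusted p = 0.0401), 2 of 5 against 26% (13.8% higher, 12.2% lower). Libraries of the 2 times did not overlap for 3 of 5 members in each genotype, namely FLS1, CHS and CHI (37% of genes in the wild type and 44.4% in the double mutant).

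FLS1 was at 0.962, 1.48 and 1.36 CPM at 3 h in the wild type and at 1.74, 2.96 and 1.74 CPM in the double mutant, below every 1 h library of the same genotype. CHS was at 3.26, 3.18 and 1.88 CPM in wild-type seedlings and at 4.89, 8.35 and 4.12 CPM in the double mutant, also below every 1 h library. CHI stood at 6.63, 7.62 and 8.24 CPM in wild-type seedlings and at 6.63, 6.85 and 8.07 CPM in the double mutant. The CHS call in the wild type was lost without any 1 of 5 of the 6 compared libraries (adjusted p up to 0.189), wild-type 1 h replicate 2 being the exception, and with the compared libraries only (0.0509). In the double mutant it was lost without mutant 1 h replicate 1, 2 or 3 or mutant 3 h replicate 1 or 3 (adjusted p up to 0.15).

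Between 0 h and 3 h no member was called in either genotype: edgeR called 0 of 5, with 0 at an unadjusted p under 0.05 and 0 by DESeq2, against 26.6% of genes in the wild type (15.4% higher, 11.1% lower) and 19.5% in the double mutant (13.2% higher, 6.25% lower). F3'H was at 3.42, 1.82 and 2.82 CPM at 3 h in the wild type and at 2.68, 3.01 and 3.42 CPM in the double mutant. MYB12 was at 5.13, 6.71 and 3.91 CPM at 3 h in the wild type and at 4.99, 4.3 and 4.7 CPM in the double mutant, where all 3 libraries lay above the 0 h libraries (40.5% of genes did not overlap in that comparison).

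The enzymes that supply the pathway rose at 1 h. Of 9 genes of phenylpropanoid entry, 7 rose at 1 h in each genotype, against 25.2% of all genes in the wild type and 20.3% in the double mutant, with a median log2 fold change over the list of 1.51 in the wild type and 1.29 in the double mutant, beside 0.0524 and 0.0368 over all genes. PAL2, phenylalanine ammonia-lyase, went from 66.7 ± 3.56 to 311 ± 108 CPM in the wild type and from 64.2 ± 7.31 to 239 ± 49.2 CPM in the double mutant (SD, n = 3). Its log2 fold changes were 2.22 and 1.90 (SE 0.20 for each, edgeR adjusted p = 3.77e-07 and 2.05e-06). PAL1 rose by 1.89 and 1.68, and the coumarate ligases 4CL1 and 4CL5 rose by 1.77 and 1.79 in the wild type and by 1.52 and 1.47 in the double mutant. C4H, cinnamate hydroxylase, rose by 1.51 and 1.29. PAL3 fell by 0.74 in the wild type (edgeR adjusted p = 0.0107), a call lost without wild-type 0 h replicate 3 (adjusted p = 0.0657). At 3 h, 5 of the 9 were above 0 h in both genotypes (15.4% and 13.2% of all genes higher), and 5 of 9 had fallen from 1 h (11.8% and 12.2% lower). In the double mutant the falls of PAL1, PAL2, PAL4 and 4CL1 were each lost without at least mutant 1 h replicate 3 (highest adjusted p over the single left-out libraries 0.11, 0.0714, 0.118 and 0.0773), and that of 4CL2 held. The wild-type fall of PAL4 was lost without 3 single libraries, namely 1 h replicate 1 or 3 or 3 h replicate 1 (adjusted p up to 0.0983). The 3 h rise of 4CL1 was lost without wild-type replicate 2 at 0 h or 3 h (up to 0.0616), and in the double mutant without 0 h replicate 1 or 2 or 3 h replicate 3 (up to 0.113).

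Genes for decorating flavonoids rose or did not pass at 1 h. Of 11 tested, 7 rose in the wild type and 6 in the double mutant, against 25.2% and 20.3% of all genes, and 0 fell. The wild-type count was 5 to 6 when single libraries were left out: UGT89C1 was lost without any 1 of the 6 compared libraries (adjusted p up to 0.146), and UGT78D2 without replicate 1 at 0 h or 1 h (up to 0.0866). 3AT1, an anthocyanin acyltransferase, went from 3.43 ± 0.609 to 8.26 ± 0.371 CPM in the wild type and from 3.91 ± 0.589 to 8.81 ± 1.61 CPM in the double mutant (SD, n = 3), log2 fold changes of 1.27 and 1.17 (edgeR adjusted p = 3.91e-05 and 0.000104). RHM1, which makes the rhamnose donor for flavonol glycosides, rose by 0.87 and 0.83. OMT1, which methylates flavonols and lignin precursors, rose by 1.01 and 0.76 and rose again from 1 h to 3 h by 0.57 and 0.65. That second rise was lost in the wild type without 1 h replicate 1 or 2 or 3 h replicate 3 (adjusted p up to 0.0972), and in the double mutant without 3 h replicate 3 (0.0923). CHIL, a protein that aids CHS, rose in the double mutant by 1.08 (edgeR adjusted p = 0.0102), a call lost without mutant replicate 3 at 0 h or at 1 h (adjusted p up to 0.056).

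**Figure D4:**
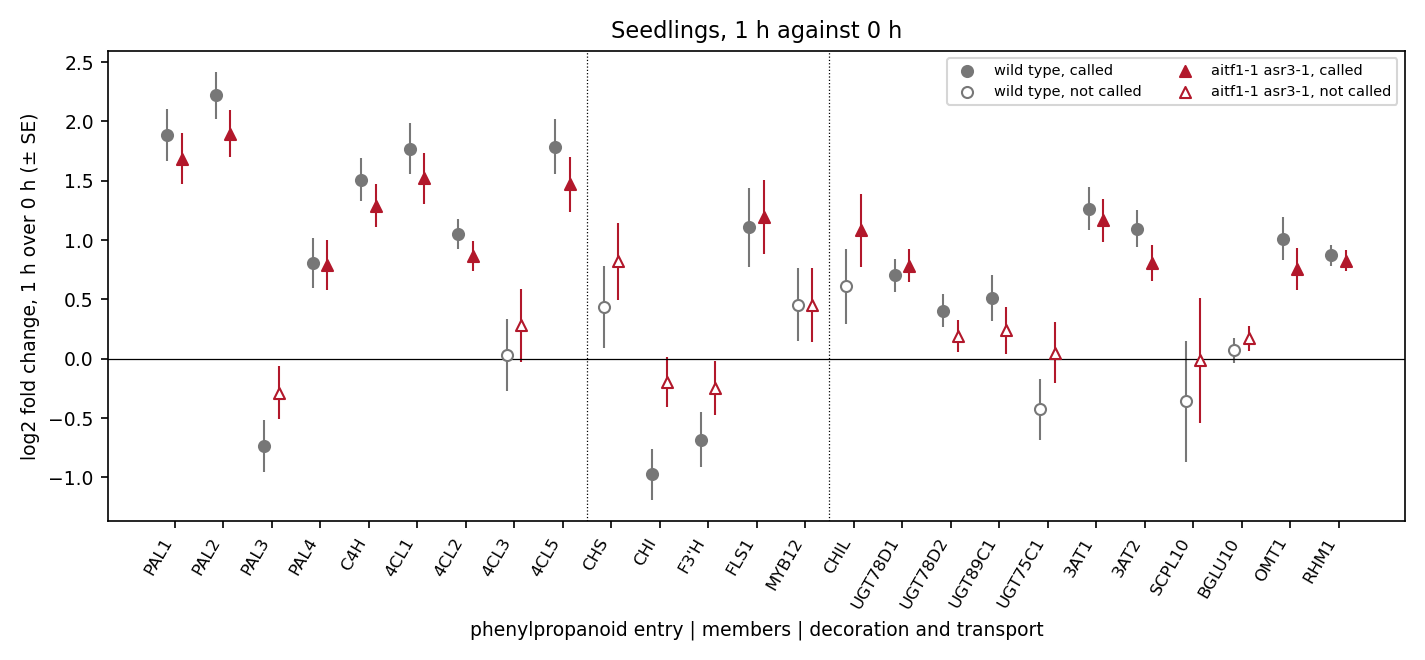
Log2 fold change at 1 h against 0 h, with bars of 1 SE, for the tested genes of phenylpropanoid entry, the 5 tested members and the genes of decoration and transport, in the wild type (circles) and the double mutant (triangles); filled symbols passed edgeR's test. PAL2 lies at 2.22 and 1.90 and FLS1 at 1.11 and 1.19, and in the wild type CHI lies at -0.97.

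Regulators outside the 10 members were called in both directions in the wild type. MYB4, a repressor of phenylpropanoid genes, went from 11.4 ± 1.68 to 45.1 ± 11.6 CPM at 1 h in the wild type (SD, n = 3), 1.98 on the log2 scale (edgeR adjusted p = 1e-06, SE 0.20), and rose by 1.74 in the double mutant. MYB7 rose by 1.57 and 1.21. In the wild type MYBL2, a repressor of DFR, fell by 1.00 and KFB-CHS, an F-box protein that removes CHS, fell by 0.61. In all, 4 of 12 repressors rose and 2 fell in the wild type, and 3 rose and 0 fell in the double mutant, against 25.2% higher and 23% lower of all genes in the wild type and 20.3% and 19.2% in the double mutant. The double-mutant count of repressors was 5 by DESeq2. Of 14 light-signalling genes, 2 rose and 4 fell in the wild type, with the bZIP factor HYH at 1.40 and the photoreceptors CRY1 and UVR8 at -0.80 and -0.65, and 1 rose and 5 fell in the double mutant. Of 4 tested activators, edgeR called 0 at 1 h in either genotype, with 0 at an unadjusted p under 0.05 and 0 by DESeq2.

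To ask whether the pathway depends on the trihelix pair, the double mutant was set against the wild type. AT3G11100 was lower in the double mutant by 0.77, 0.87 and 0.87 on the log2 scale and ASR3 by 0.71, 0.65 and 0.90 at 0, 1 and 3 h, so transcripts of both remain. The ASR3 call was lost in 6 of 13 alternatives at 0 h and in 10 of 13 at 1 h (adjusted p up to 0.194 and 0.557). CHS and FLS1 lay on the higher side in the double mutant at each time, and no member was called at a single time. edgeR called 0 of 5 members at 0 h, 1 h and 3 h, against 0.357%, 0.262% and 0.276% of genes (0.295%, 0.195% and 0.224% higher; 0.0618%, 0.0666% and 0.0523% lower). At an unadjusted p under 0.05 there were 0, 2 and 1 members, and DESeq2 called 0 at each time.

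At 0 h the log2 fold change of CHS was 0.59 (95% interval -0.137 to 1.32). The CHS difference was 0.98 at 1 h (0.283 to 1.67, edgeR adjusted p = 0.547) and 1.07 at 3 h (0.295 to 1.84, adjusted p = 0.548). At 1 h and 3 h every double-mutant library lay above every wild-type library. FLS1 gave 0.60, 0.68 and 0.76 at 0, 1 and 3 h, with libraries that did not overlap at 0 h and 3 h. Non-overlapping higher libraries occurred in 5.11%, 7.46% and 6.77% of all genes at 0, 1 and 3 h. CHI, F3'H and MYB12 overlapped between genotypes at every time.

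Averaged over the 3 times, CHS was called higher in the double mutant by 0.88 on the log2 scale (SE 0.20, 95% interval 0.456 to 1.3, edgeR adjusted p = 0.0416), 1 of 5 members against 1.11% of genes (0.751% higher, 0.357% lower). Its mean level was 6.38 ± 2.4, 11.3 ± 1.53 and 5.79 ± 2.25 CPM in the double mutant at 0, 1 and 3 h and 4.25 ± 1.8, 5.78 ± 2 and 2.77 ± 0.778 CPM in the wild type (SD, n = 3). FLS1 was 0.68 higher (SE 0.20) with an edgeR adjusted p of 0.129, and was called by DESeq2 (adjusted p = 0.0362). With replicate number as a block, CHS was not called and FLS1 was. The intervals of the other 3 members were -0.286 to 0.234 for CHI, -0.106 to 0.452 for F3'H and -0.495 to 0.257 for MYB12. The CHS call was lost in 14 of the 18 fits that leave out 1 library, all except those without wild-type 0 h replicate 3, wild-type 1 h replicate 3, mutant 0 h replicate 3 and mutant 3 h replicate 3, with adjusted p from 0.00213 to 0.107 and log2 fold changes from 0.76 to 1.01.

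**Figure D5:**
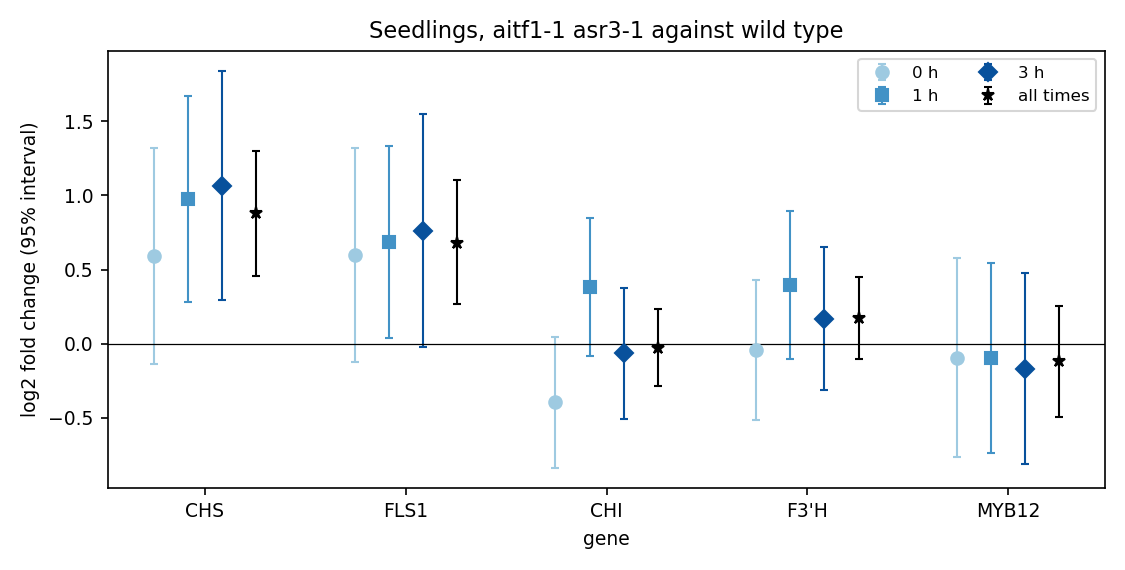
Log2 fold change of the double mutant over the wild type for the 5 tested members at 0, 1 and 3 h and averaged over the times, with 95% intervals from edgeR. The averaged CHS value of 0.88 is the 1 value called in this fit, which has no replicate block. CHI, F3'H and MYB12 have averaged intervals that include 0.

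The response over time was not shown to differ between the genotypes. In the genotype by time tests at 1 h and 3 h, edgeR called 0 members and 0% of genes, with 1 and 0 members at an unadjusted p under 0.05 (474 and 853 genes) and 0 members by DESeq2. The member with the unadjusted p under 0.05 was CHI at 1 h. No gene of the entry, decoration, activator, repressor or light lists was called by edgeR in any comparison of the genotypes, at an unadjusted p under 0.05 in at most 1 gene a list, and 0 by DESeq2.

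CHS and FLS1 varied together over the 18 seedling libraries, with a Pearson r of 0.862 on log2 values (0.631 after removing group means), the highest among the 10 pairs of tested members. The libraries fall into 6 groups and share depth and scaling, and this value is a description. Among 15939 genes with a mean of at least 5 CPM, those most like CHS were iPGAM2, a glycolytic phosphoglycerate mutase (r = 0.824), AT3G03320 (0.804), AT1G74300 (0.802), PFI (0.8) and BRG1 (0.789). Those most like MYB12 were AT3G51540 (0.91), NAP1;4 (0.899), AT5G07080 (0.87), HK5 (0.87) and AT2G24550 (0.868). F3'H and MYB12 had an r of -0.689, or -0.647 after removing group means.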

How the data were processed

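RNA-seq counts per gene were analysed for 4 leaf and 18 seedling libraries, each from its own deposited column, with groups and replicate numbers from the labels. The authors deposited raw counts. The submitters' processing notes name HISAT2 2.1.0, featureCounts of Subread 1.6.5 and the build TAIR10; the sources used here do not give their settings, the annotation release, the strand or the treatment of shared reads. Organelle genes number 211 among leaf genes and 0 among seedling genes.

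From the counts, genes were filtered with filterByExpr (minimum count 10), scaled by TMM and tested in edgeR 4.0.16 (R 4.3.3, with limma 3.58.1) by glmQLFit and glmQLFTest, two-sided, with Benjamini-Hochberg adjustment over all genes of each of 13 comparisons and a threshold of 0.05. Leaf libraries (2 residual degrees of freedom) and seedling libraries (12) were fitted apart. Standard errors come from the F statistic. The code was tested on simulated data. DESeq2 1.42.0, other scalings, filters, a replicate block and leaving out each library were alternatives. Coordinates, gene names and upstream sequences come from RefSeq TAIR10.1, used for all 10 loci by identifier. CPM are TMM-scaled.

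The 10 genes and the pathway lists were chosen with earlier results of these data known. All 10 are described. Of each list, up to 4 called genes a comparison with a mean of at least 1 CPM and the largest change are named; the clock list, the ratio of libraries and genes named by it, C4H, CHIL and the genes of small counts were chosen after their values were seen.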

Additional observations from a re-analysis of the deposited data

How the results depend on the processing

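Of the 10 genes, the count called in leaves was 0 and ran from 0 to 8 when single libraries were left out, and it was 1 (MYB111, at a log2 fold change of 2.15) with library totals alone. The highest of these counts came without OXAITF1 replicate 2 and includes DFR, LDOX and MYB111. These genes entered that fit only through the library in which they are high, so their calls are not read. With library totals alone MYB111 likewise passed the filter only through the OXAITF1 libraries, and that call is not read either. The leaf value of CHS ran from -2.1 without OXAITF1 replicate 1 to 5.24 without OXAITF1 replicate 2. Over all leaf genes edgeR called 3692, against 6414 with library totals alone, 0 with a replicate block and 0 without either wild-type library. In wild-type seedlings the count of members called ran over single left-out libraries from 1 to 4 at 1 h against 0 h, from 0 to 1 at 3 h against 0 h and from 2 to 3 at 3 h against 1 h. In the double mutant it ran from 1 to 2, from 0 to 1 and from 1 to 2, and at 1 h against 0 h it was 2 with DESeq2, with the replicate block and with the compared libraries only, since CHS then passed. For the genotypes over all times it ran from 0 to 2, and was 2 with DESeq2. Counts at single times and in both interaction tests were 0 in every alternative run. No seedling value of a called member changed direction. The cause of these shifts was not tested. Of 125 calls of listed pathway genes over the 6 seedling time comparisons, 84 held in every alternative run (a check chosen after seeing the data), 41 were lost in at least 1, and 0 changed direction.

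Replicate numbers are shared between groups, but nothing in the labels says that a number marks a pair. In seedlings the deviations of libraries with the same number had r from -0.294 to 0.485 (median 0.111, against -0.0628 for other pairs), and 14 of 18 libraries correlated best with their own number. With the replicate block, CHS over all times had an adjusted p of 0.0545 and FLS1 0.0252.

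Depth limits MYB75, DFR, LDOX and MYB111 in seedlings, with 10 counts or fewer a library.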
